A study of Mus musculus with 6 samples.

Results

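The cytosolic and endoplasmic reticulum (ER) heat shock chaperones described here are 10 genes, Hspa1a, Hspa1b, Hspa8, Hspa5, Hsph1, Hsp90aa1, Hsp90ab1, Hspb1, Dnajb1 and Hsf1. They were chosen by name, though with earlier results of these data known, as the probes whose transcript accession belongs to any of these symbols. That gave 18 of the 56605 probes on the array that are not controls, and 10 of its 23462 named genes. The microglia were isolated from brain by magnetic selection for the surface protein P2RY12, after acute ischaemic stroke (AIS) made by transient occlusion of the middle cerebral artery. All mice carried a conditional PGC-1α f/f allele that expresses the transcriptional coactivator PGC-1α once recombined, all were given tamoxifen, and all were labelled male, 10 weeks old and on a C57BL/6 background. The mPGC-1α mice also carried the tamoxifen-inducible Cre/ER under the Cx3cr1 promoter, and the control mice were PGC-1α f/f littermates without Cre. There were 3 one-colour arrays per group. The labels do not say whether a sample held cells of 1 mouse or of several, so the p-values measure the spread between these samples.

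Heat shock chaperones keep other proteins folded. Hsp70 proteins bind unfolded stretches of a client protein in cycles driven by ATP, J-domain co-chaperones of the Hsp40 family deliver the clients, Hsp110 proteins exchange the nucleotide, and Hsp90 proteins finish the folding of kinases and receptors. Heat shock factor 1, encoded by Hsf1, switches on the inducible members under stress by binding repeats of a short DNA element, while the chaperone of the ER follows a separate pathway, the unfolded protein response. In the brain, the inducible Hsp70 genes are best known as genes switched on by ischaemia.

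Every level below is the log2 intensity of a probe minus the 75th percentile of its array, so 0 is the brightness of a probe at that percentile. Differences are mPGC-1α minus control on the same log2 scale, tested with limma across all 40745 probes that passed the filter on dim spots. The variance of each probe is partly taken from the other probes in limma, so its p-values do not rest on that probe's spread alone. Levels of different probes are not compared with each other, since probes differ in brightness for the same amount of RNA. In bulk RNA, fewer cells of a type and less RNA per cell cannot be told apart.

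Several facts of the whole series touch all values. No spot was saturated, and 71.0% to 86.5% of spots were well above background. Arrays 3 of both groups, which shared a slide, had the most spots marked by the scanner software as outliers, 3010 on control 3 and 4931 on mPGC-1α 3 against 549 to 1094 on the other 4 arrays. The microglial markers P2ry12 and Tmem119 were well above background on all 6 arrays. The targeted gene was not higher in the mPGC-1α samples: both Ppargc1a probes were lower by measured value, with differences of -0.31 (SE 0.24, adjusted p = 0.798 by limma) and -0.41 (SE 0.27, adjusted p = 0.769 by limma). Cx3cr1, whose promoter drives the Cre/ER, stood on its tested probe at 4.19, 3.66 and 4.11 in control and at 2.79, 2.36 and 3.13 in mPGC-1α. This was lower on every mPGC-1α array, a difference of -1.23 (SE 0.24, adjusted p = 0.684 by limma). A further Cx3cr1 probe had too few unmarked spots for a test. It stood nearer together, at 3.96 and 3.75 on controls 1 and 3 and at 3.57 on mPGC-1α 1. Xist stood at -4.83 on control 2 and between -0.57 and -0.11 on the other arrays, and each of the Y-linked genes Ddx3y, Eif2s3y, Kdm5d and Uty had a probe whose highest level was on control 2. Control 2 thus stands apart from the other 5 arrays, which go against the male label, and results that rest on it are given with and without it.

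No member gene passed the threshold of adjusted p 0.05, and neither did any probe on the array, where the share called was 0%. Of the 18 member probes, 17 were well above background on all 6 arrays and 14 could be tested. The other 4 had too few unmarked spots, which left Hsp90ab1 with no test and the other 9 genes with at least 1 tested probe. By the brightest tested probe of each gene, 6 genes had a higher and 3 a lower mean in mPGC-1α, with a median difference of 0.14 against 0.11 over the brightest probes of all 18222 genes tested, of which 64.0% had a higher mean. At an unadjusted p under 0.05 stood 0 of the 9 genes by that probe, against 6.09% of all genes, and 1 of the 14 probes, against 7.17% of all probes. That 1 probe, Hsph1 A_55_P2931347, was lower in mPGC-1α, as were 4.52% of all probes. At this p 0 member probes and 2.65% of all probes were higher. The Hsph1 probe passed the filter only through control, where it was higher. With the filter set to unmarked and well above background on all 6 arrays, 0 of 10 member probes had an unadjusted p under 0.05. In a fit blocked on the replicate number, 2 of the 9 genes, Hspa1a and Hspa1b, had an unadjusted p under 0.05, against 10.3% of all genes. By probe it was 5 of 14, against 11.8% of all probes: both of these as higher, and Hspa8 A_55_P2910890, Hspa8 A_66_P137434 and Hsph1 A_55_P2931347 as lower. No member passed adjustment in that fit, against 0.00245% of all probes. Without control 2 there were also 2 of 9 genes, Dnajb1 as higher and Hspa5 as lower, against 21.2% of all genes. By probe it was 4 of 12, against 22% of all probes, and the other pair, Hspa8 A_55_P2910890 and Hsph1 A_55_P2931347, passed adjustment as lower, as did 5.35% of all probes in either direction.

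**Figure D1:**
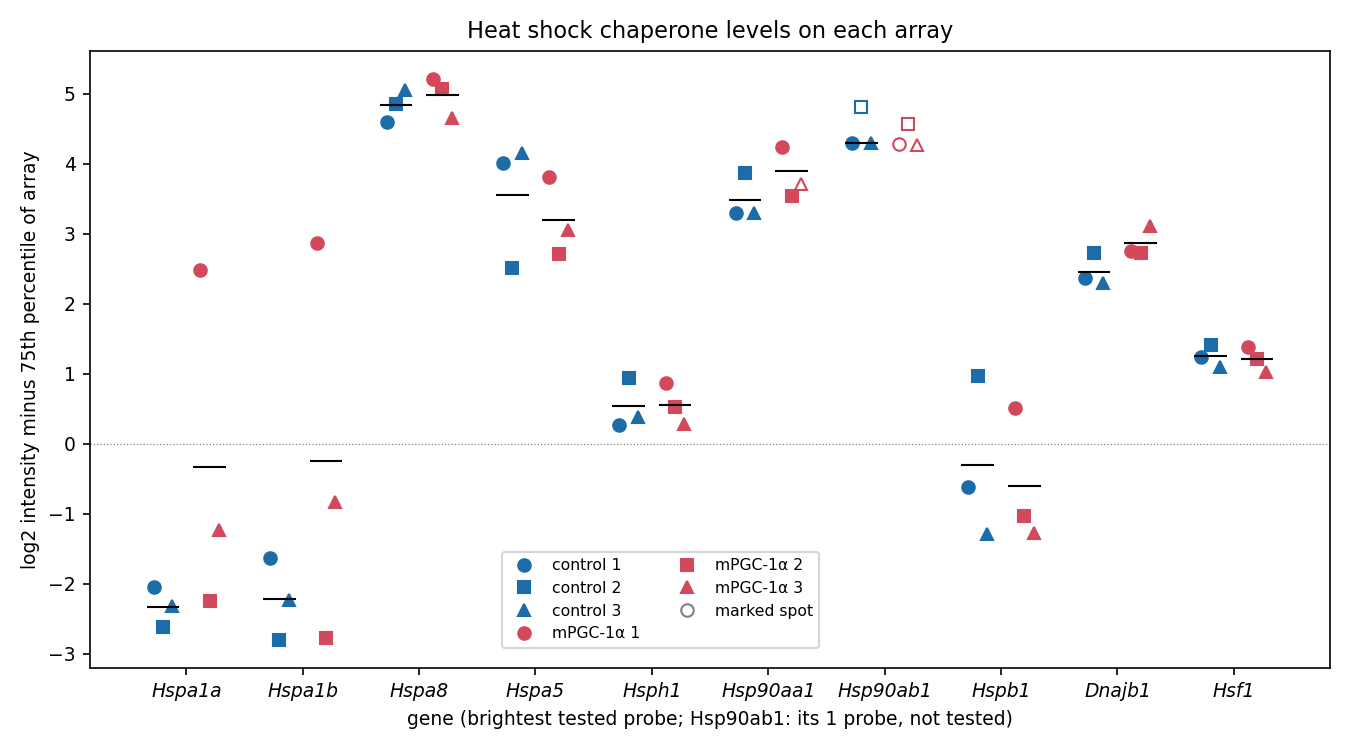
Level of each gene on each array (log2 intensity minus the 75th percentile of the array, y axis) by the brightest tested probe, with Hsp90ab1 shown by its 1 untested probe. Blue symbols are control, red mPGC-1α, open symbols are marked spots and black lines are means of unmarked spots. Hspa1a and Hspa1b stood at 2.49 and 2.86 on mPGC-1α 1 and below 0 on the other 5 arrays.

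Hspa1a and Hspa1b encode the stress-inducible cytosolic Hsp70 and are near-identical copies, lying on mouse chromosome 17 at 34969359 to 34972156 and 34956429 to 34959238 in build GRCm38.p6. The 250 bases before their start sites are shown because they hold the shared heat shock element and show how alike the copies are, differing at 3 of 250 bases. The capitals mark GAANNTTC, the core of a heat shock element, which begins 104 bases before the start in both. Sequences are from RefSeq, on the minus strand.
Hspa1a, chr17:34972157-34972406: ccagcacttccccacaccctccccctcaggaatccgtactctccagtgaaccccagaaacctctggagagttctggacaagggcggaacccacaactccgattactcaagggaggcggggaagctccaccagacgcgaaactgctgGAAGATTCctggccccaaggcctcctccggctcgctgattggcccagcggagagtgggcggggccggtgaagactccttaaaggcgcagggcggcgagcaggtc
Hspa1b, chr17:34959239-34959488: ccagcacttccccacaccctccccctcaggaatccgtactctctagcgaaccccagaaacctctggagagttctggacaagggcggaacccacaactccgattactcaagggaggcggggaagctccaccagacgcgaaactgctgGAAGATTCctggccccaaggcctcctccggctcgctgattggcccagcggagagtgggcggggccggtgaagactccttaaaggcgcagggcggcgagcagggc

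Hspa1a probe A_52_P82741 stood at -2.05, -2.62 and -2.32 on controls 1 to 3, and at 2.49, -2.24 and -1.24 on mPGC-1α 1 to 3. The level on mPGC-1α 1 was 28.1-fold the control mean, that on mPGC-1α 3 was 2.13-fold and that on mPGC-1α 2 was 1.06-fold, within the range of the controls. Hspa1b probe A_66_P118021 stood at -1.63, -2.80 and -2.23 on the controls and at 2.86, -2.78 and -0.84 on mPGC-1α 1 to 3. On this probe too mPGC-1α 1 was far above all others, 34.0-fold over the control mean, with mPGC-1α 3 at 2.62-fold and mPGC-1α 2 among the controls. The groups overlapped for both genes. Across the 6 arrays the pair of probes had a Pearson correlation of 0.99, given as a description, since how far the probes separate the near-identical copies was not tested.

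The group means of Hspa1a were -2.33 ± 0.28 in control and -0.33 ± 2.49 in mPGC-1α (SD, n = 3 each), a difference of 2.00 (SE 0.97, adjusted p = 0.715 by limma). Those of Hspa1b were -2.22 ± 0.59 and -0.25 ± 2.86 (SD, n = 3 each), a difference of 1.97 (SE 1.13, adjusted p = 0.746 by limma). Exact two-sided permutation tests gave p = 0.2 for Hspa1a and p = 0.3 for Hspa1b, where 3 arrays against 3 allow no value under 0.1. On the slide with arrays 1 and 2 of each group the Hspa1a difference was 2.46 and the Hspa1b difference 2.26, and on the slide with arrays 3 they were 1.08 and 1.40. One library set much of these sizes: without mPGC-1α 1 the differences were 0.59 for Hspa1a and 0.42 for Hspa1b, and without control 2 they were 1.85 and 1.68. In the fit blocked on the replicate number, the unadjusted p by limma was 0.0068 for Hspa1a and 0.0083 for Hspa1b, with adjusted p 0.189 and 0.204. The SE there was 0.60 and 0.61, though the step from control to mPGC-1α was far larger for arrays 1 than for arrays 2 or 3. These p-values do not measure the spread of the pairs alone, since limma takes part of each variance from other probes. The pairing was read from these same data.

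The step from mPGC-1α 1 down to the next array was 3.73 for Hspa1a and 3.70 for Hspa1b. Among the probes whose highest level was on mPGC-1α 1 these were the largest and the second largest steps, and over all 36995 probes measured on 6 arrays they ranked 7 and 8. Steps of at least 3 were seen for 6 probes on mPGC-1α 1, for 12 on mPGC-1α 2 and for 4 on control 1. The genes whose pattern was most like that of Hspa1a, by Pearson correlation over the 6 arrays, were Cttnbp2nl (r = 0.996), Zc3h12c (r = 0.995), 2900060L22Rik (r = 0.995), Negr1 (r = 0.992) and Lrp12 (r = 0.992). Hspa1b ranked 9 of 16190 genes in this likeness. The next member was Hspa8 at rank 2651 (r = 0.48), followed by Hsph1 at 3751 (r = 0.38), and Dnajb1 was at 4802 (r = 0.30). All these values lean on the single array mPGC-1α 1. Over the other 5 arrays the correlation with Hspa1a was 0.92 for Hspa1b, 0.60 for Dnajb1 and 0.08 for Hspa5, and it turned negative for Hspa8 (-0.57), Hspb1 (-0.60), Hsph1 (-0.71) and Hsf1 (-0.78).

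On the same array the immediate early genes, which are switched on within minutes of stimulation or tissue handling, had a mean level of 2.39 over the 7 of them measured on all 6 arrays, against 1.45 to 1.70 on the other 5 arrays. Most of that gap came from Fosb and Atf3, and over the other 5 genes the mean was 2.14 against 1.65 to 2.04. Fosb stood at -1.59, -0.77 and -0.10 in control and at 1.80, 0.17 and -0.97 in mPGC-1α, a difference of 1.15 (SE 0.63, adjusted p = 0.737 by limma). Atf3 stood at 3.78, 2.49 and 1.98 in control and at 4.25, 1.97 and 2.50 in mPGC-1α. It was thus high on control 1 too, where Hspa1a stood at -2.05 and Hspa1b at -1.63. Of the 11 immediate early genes tested, 8 had a higher mean in mPGC-1α, against 64.0% of all genes, and none had an unadjusted p under 0.05, against 6.09%. The part of these genes in the Hspa1a and Hspa1b levels was not tested.

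Hspa8 encodes Hsc70, the constitutive cytosolic Hsp70, and its 4 probes did not give one answer. The brightest, A_55_P2069721, stood at 4.60, 4.85 and 5.06 in control and at 5.21, 5.07 and 4.65 in mPGC-1α. The groups overlapped fully, with a difference of 0.14 (SE 0.21, adjusted p = 0.897 by limma) that was 0.42 on one slide and -0.41 on the other. Probe A_55_P2910890 stood at 4.70, 2.87 and 4.78 in control and at 3.46, 3.17 and 3.39 in mPGC-1α, so that controls 1 and 3 were the highest arrays and control 2 was the lowest. Its difference was -0.78 (SE 0.44, adjusted p = 0.744 by limma), and -1.40 without control 2, where it passed the threshold (adjusted p = 0.0028 by limma). Probe A_66_P137434 also had controls 1 and 3 as the highest arrays, with a larger step, at 3.90 and 0.53 on controls 1 and 2 and at 0.83 and -0.07 on mPGC-1α 1 and 2. With its marked spots kept, the level was 4.24 on control 3 and 0.47 on mPGC-1α 3. Its difference over unmarked spots was -1.83 (SE 0.95, adjusted p = 0.725 by limma, n = 2 each). With marked spots kept, mPGC-1α was lower in all 3 same-numbered pairs. The blocked fit left marked spots out, so for this probe it rested on the pairs of arrays 1 and 2. It gave an unadjusted p of 0.0028 and an adjusted p of 0.144 by limma. The fourth probe, A_55_P2909278, could not be tested, and with marked spots kept its levels ran from 4.28 to 5.19 in control and from 4.58 to 5.02 in mPGC-1α.

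Hsph1 encodes Hsp105, the Hsp110 nucleotide exchange factor of Hsp70, and again 1 of its probes stood apart. Probe A_55_P2176963 stood at 0.27, 0.94 and 0.38 in control and at 0.87, 0.52 and 0.28 in mPGC-1α, a difference of 0.02 (SE 0.26, adjusted p = 0.991 by limma). Probe A_55_P2003513 stood at -0.03, -0.28 and 0.03 in control and at -0.16, -0.02 and -0.60 in mPGC-1α, a difference of -0.17 (SE 0.24, adjusted p = 0.894 by limma). On both probes the groups overlapped. Probe A_55_P2931347, assigned to a separate transcript accession of the gene, stood at -3.08, -5.85 and -2.95 in control and at -6.10, -5.95 and -7.11 in mPGC-1α. All controls were above all mPGC-1α arrays, control 2 by 0.10, and this probe was not well above background on mPGC-1α 3. It thus passed the filter only through control, where it was higher, and its p-values give no separate support for a difference. The difference of -2.43 (SE 0.73) had an unadjusted p of 0.0087 and an adjusted p of 0.684 by limma, and the exact permutation p was 0.1, the smallest possible. Without control 2 the difference was -3.37 (adjusted p = 0.0042 by limma). Groups without overlap were found for 11.5% of all probes measured on 6 arrays, with mPGC-1α lower for 4.66% and higher for 6.8%.

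**Figure D2:**
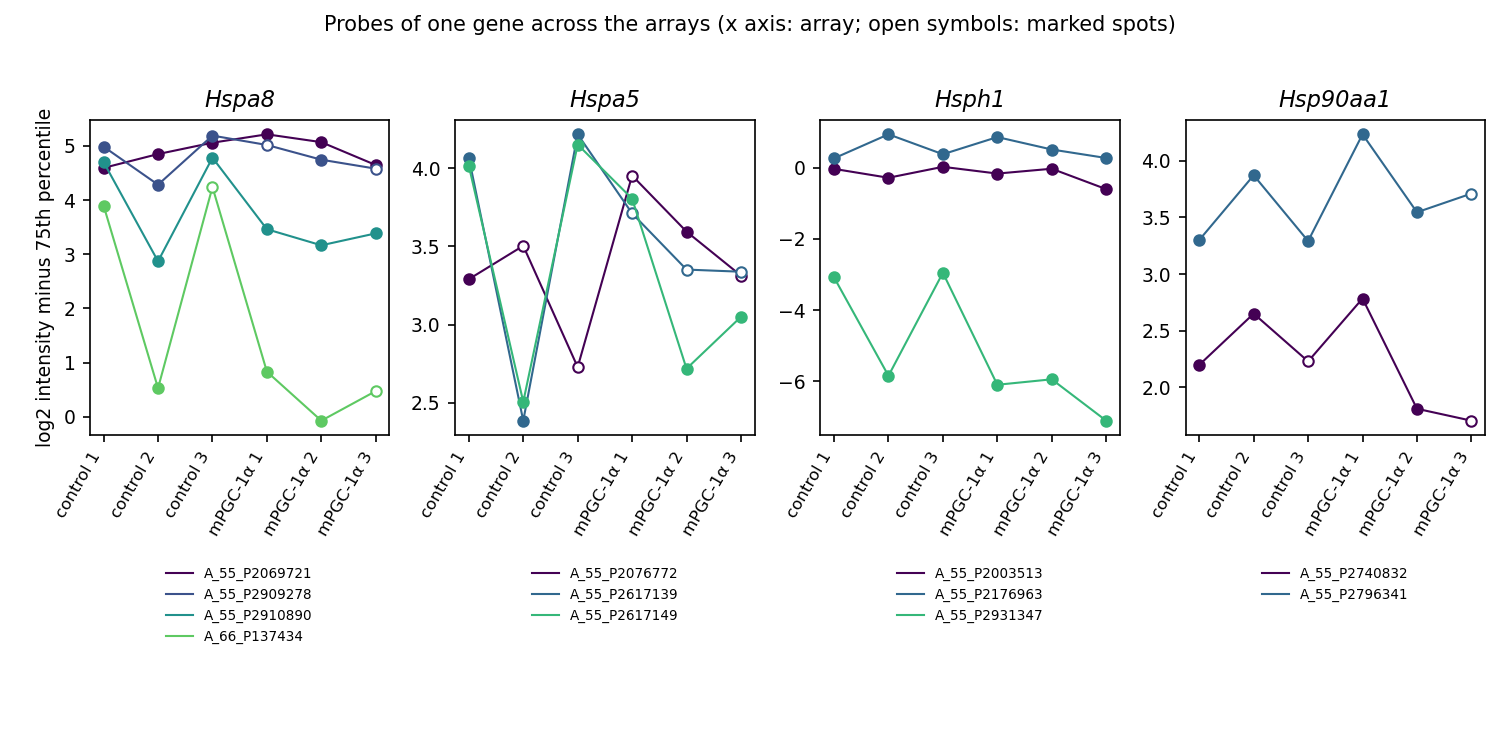
Levels of every probe of the 4 genes with several probes (log2 intensity minus the 75th percentile, y axis) on the 6 arrays (x axis), 1 line per probe, with open symbols for marked spots. In each of Hspa8, Hspa5 and Hsph1 at least 1 probe is high on controls 1 and 3, such as 3.90 and 4.24 for Hspa8 A_66_P137434, while another probe of the gene is not.

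Hspa5 encodes BiP, the Hsp70 of the ER lumen and a main target of the unfolded protein response. Its promoter is shown because it holds the ER stress element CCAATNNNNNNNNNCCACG (capitals), 65 bases before the start at position 34772090 of chromosome 2, a match found in 0.119% of 32851 RefSeq windows of 300 bases.
Hspa5, plus strand, GRCm38.p6, chr2:34772005-34772063: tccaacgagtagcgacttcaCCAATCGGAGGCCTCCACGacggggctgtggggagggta

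The tested Hspa5 probe, A_55_P2617149, stood at 4.01, 2.51 and 4.15 in control and at 3.80, 2.72 and 3.05 in mPGC-1α. Controls 1 and 3 were again the highest and control 2 the lowest. The means were 3.56 ± 0.91 and 3.19 ± 0.56 (SD, n = 3 each), a difference of -0.37 (SE 0.44, adjusted p = 0.870 by limma) that became -0.89 without control 2 (adjusted p = 0.149 by limma). A second probe, A_55_P2617139, ran close to it with 4.07, 2.39 and 4.22 in control. The third, A_55_P2076772, ran otherwise, and with marked spots kept it stood at 3.29, 3.50 and 2.73 in control and at 3.95, 3.59 and 3.31 in mPGC-1α.

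The order with controls 1 and 3 above the other 4 arrays was thus seen in 5 of the 18 member probes, spread over Hspa8, Hspa5 and Hsph1, against 13.6% of all tested probes and 30.5% of the dimmer probes of named genes. The member counts here include untested probes, of which Hspa5 A_55_P2617139 had this order, while the shares are over tested probes only. The step from the lower of these controls to the highest of the other 4 arrays, with marked spots kept, was 3.07 for Hspa8 A_66_P137434, 2.77 for Hsph1 A_55_P2931347, 1.24 for Hspa8 A_55_P2910890, and 0.36 and 0.21 for the pair of Hspa5 probes. A step of at least 1 was found in 3.37% of all tested probes, in 1.41% of the brightest or only probes of named genes and in 10.7% of the dimmer probes of named genes, and in 3 of the 18 member probes. The 3 member probes with such a step were all dimmer probes of their genes. No coordinates or letters of the probes were used here, so where in the transcript each one lies is not given.

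The cytosolic Hsp90 genes are Hsp90aa1, the stress-responsive form, and Hsp90ab1, the constitutive one. Hsp90aa1 probe A_55_P2796341 stood at 3.30, 3.87 and 3.29 in control and at 4.24 and 3.55 on mPGC-1α 1 and 2, with a marked spot at 3.71 on mPGC-1α 3. The groups overlapped, with a difference of 0.40 (SE 0.29, adjusted p = 0.780 by limma). Its second probe, A_55_P2740832, had a difference of -0.13 (SE 0.37, adjusted p = 0.951 by limma). Hsp90ab1 had marked spots on 4 of 6 arrays and was not tested. With marked spots kept it was among the steadiest members, at 4.30, 4.82 and 4.30 in control and 4.29, 4.57 and 4.27 in mPGC-1α, a difference of -0.10.

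Hspb1 encodes the small heat shock protein Hsp25, which holds unfolded proteins without using ATP. Its promoter on chromosome 5 is shown because it holds a pair of GAANNTTC elements (capitals), beginning 117 and 97 bases before the start.
Hspb1, plus strand, GRCm38.p6, chr5:135887782-135887849: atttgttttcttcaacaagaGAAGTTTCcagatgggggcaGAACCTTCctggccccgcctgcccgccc

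Hspb1 probe A_55_P2039284 stood at -0.61, 0.97 and -1.29 in control and at 0.51, -1.04 and -1.28 in mPGC-1α. Control 2 and mPGC-1α 1 were high and the groups overlapped. The means were -0.31 ± 1.16 and -0.60 ± 0.97 (SD, n = 3 each), and the difference of -0.29 (SE 0.61, adjusted p = 0.932 by limma) changed sign to 0.35 without control 2.

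The core GAANNTTC was found in 7.86% of the RefSeq windows and TTCNNGAA in 8.52%, and either in 15.1%. Each core reads the same on both strands. Of the 6 members with a promoter in the RefSeq table, 4 held one of them: Hspa1a, Hspa1b, Hspb1 and Hsph1. Among these 4 only Hsph1 held a match of 3 alternating units, which lay after its start site, as against 0.603% of all windows. Hspa5 and Dnajb1 held neither in this window. A match is a description of the letters and not evidence of binding. The highest array differed among these 4 genes: Hspa1a and Hspa1b were highest on mPGC-1α 1, Hspb1 and the brightest Hsph1 probe on control 2. With control 2 left out, Hspb1 (0.51) and that Hsph1 probe (0.87) were highest on mPGC-1α 1 too. The other Hsph1 probes were highest on control 3.

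Dnajb1 encodes Hsp40, the J-domain partner of Hsp70. Its probe A_51_P153486 stood at 2.36, 2.72 and 2.29 in control and at 2.76, 2.73 and 3.11 in mPGC-1α. All mPGC-1α arrays were above all controls, by 0.01 at the nearest pair of values, and Dnajb1 was the 1 gene without overlap among the 8 member genes measured on all 6 arrays by the brightest probe, where 11.9% of all such genes had none. The means were 2.46 ± 0.23 and 2.87 ± 0.21 (SD, n = 3 each), a difference of 0.41 (SE 0.20, adjusted p = 0.715 by limma, exact permutation p = 0.1). It was 0.20 on the slide with arrays 1 and 2 and 0.82 on the other, and 0.54 without control 2 (unadjusted p = 0.019, adjusted p = 0.151 by limma). Over the alternatives in processing the Dnajb1 difference stayed between 0.29 and 0.54.

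Hsf1, the transcription factor itself, varied least among the tested members. Probe A_52_P647582 stood at 1.24, 1.41 and 1.10 in control and at 1.38, 1.21 and 1.02 in mPGC-1α, with means of 1.25 ± 0.15 and 1.21 ± 0.18 (SD, n = 3 each). The groups overlapped and the difference was -0.04 (SE 0.20, adjusted p = 0.973 by limma). In Hsf1, Hspb1, Hsph1 and Hsp90aa1, 4 of the 10 member genes, control 2 and mPGC-1α 1 were the highest pair of arrays, as they were in 2188 of all 18222 genes.

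**Figure D3:**
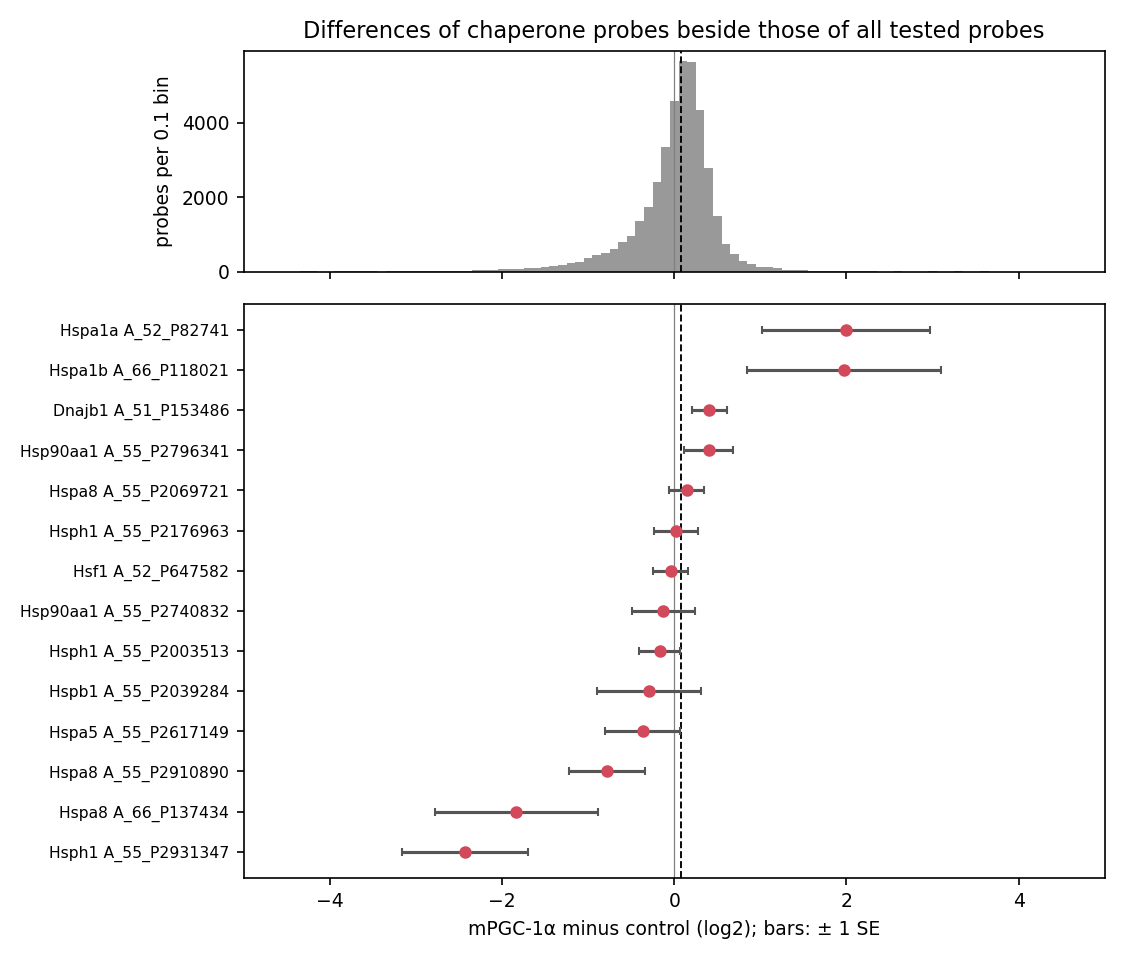
Top, the number of tested probes per 0.1 of difference (mPGC-1α minus control, log2). Bottom, the differences of the 14 tested member probes with bars of 1 SE, where the dashed line is the median of all tested probes (0.08). Hspa1a (2.00) and Hspa1b (1.97) lie farthest to the right and Hsph1 A_55_P2931347 (-2.43) farthest to the left.

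The other genes of the chaperone network formed 9 lists of 82 genes in all, of which 77 were tested. None passed the adjusted threshold, 51 of the 77 (66.2%, against 64.0% of all genes) had a higher mean in mPGC-1α, and the median difference was 0.09. At an unadjusted p under 0.05 stood 7 genes (9.09%, against 6.09% of all genes), 2 higher and 5 lower. Without control 2 there were 21 such genes of 72 (29.2%, against 21.2% of all genes). Without control 3 there was 1 (1.3%, against 2.86%), and in the blocked fit there were 11 (14.3%, against 10.3%).

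Bag3, a co-chaperone that steers Hsp70 clients to autophagy and is itself induced by heat shock, was the higher one among the 14 Hsp70 and Hsp90 co-chaperones. It stood at -0.40, -0.02 and -0.29 in control and at 1.13, 0.18 and 0.22 in mPGC-1α, without overlap and highest on mPGC-1α 1. The difference was 0.75 (SE 0.29, unadjusted p = 0.029, adjusted p = 0.685 by limma). In the same list Bag2, an inhibitor of the Hsp70 ubiquitin ligase Chip, had a difference of -0.71 (SE 0.26, adjusted p = 0.684 by limma) and Fkbp4, an Hsp90 immunophilin, one of -0.67 (SE 0.32, adjusted p = 0.710 by limma). The list as a whole was even, with 7 genes higher and 7 lower and a median of 0.00.

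Among the other Hsp70 and Hsp110 genes, 5 of 8 had a higher mean, and Hspa4l, an Hsp110 relative of Hsph1, had a difference of -1.31 (SE 0.39, adjusted p = 0.684 by limma) without overlap. Of the 8 J-domain co-chaperones tested 7 had a higher mean (median 0.17), and the exception Dnajb6, which holds back aggregation, had a difference of -0.96 (SE 0.45, adjusted p = 0.706 by limma). Of the 6 other small heat shock proteins 4 had a higher mean, while Hspb8, the partner of Bag3, had a difference of -0.93 (SE 0.37, adjusted p = 0.686 by limma) without overlap. The TRiC chaperonin, the ring that folds actin and tubulin, had 4 genes higher and 4 lower (median -0.02), with Tcp1 at -0.91 (SE 0.38) and Cct3 at -0.72 (SE 0.30), both at adjusted p = 0.687 by limma. Controls 1 and 3 were the highest arrays for Hspa4l, Dnajb6, Fkbp4, Bag2, Tcp1 and Cct3, which were among 10 of the 77 genes with that order, against 9.83% of all genes.

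The mitochondrial chaperones had 5 of 7 genes higher (median 0.12), and the 2 heat shock factors other than Hsf1 that were tested had a median of 0.14. In the ER, 11 of 15 chaperones had a higher mean (median 0.13) and none had an unadjusted p under 0.05. Dnajb9, named for its size after the values were seen, had a difference of -2.51 (SE 1.46, adjusted p = 0.752 by limma) set by 1 array, at -4.50 on mPGC-1α 1 against 0.58 to 0.95 on the other 3 arrays that measured it. The regulators of the unfolded protein response had the highest median of the 9 lists, 0.38, with 7 of 9 genes higher. Herpud1, which serves the degradation of ER proteins, had a difference of 0.53 (SE 0.19, unadjusted p = 0.024, adjusted p = 0.685 by limma, n = 3 and 2). Xbp1, the spliced transcription factor of this response, stood at 3.79, 4.23 and 3.80 in control and at 4.30, 4.48 and 4.27 in mPGC-1α, without overlap, a difference of 0.41 (SE 0.19, adjusted p = 0.703 by limma). Hspa5, a main target of that response, did not share the direction on its tested probe (-0.37). On its untested probes, with marked spots kept, the difference was 0.45 for A_55_P2076772 and -0.09 for A_55_P2617139.

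**Figure D4:**
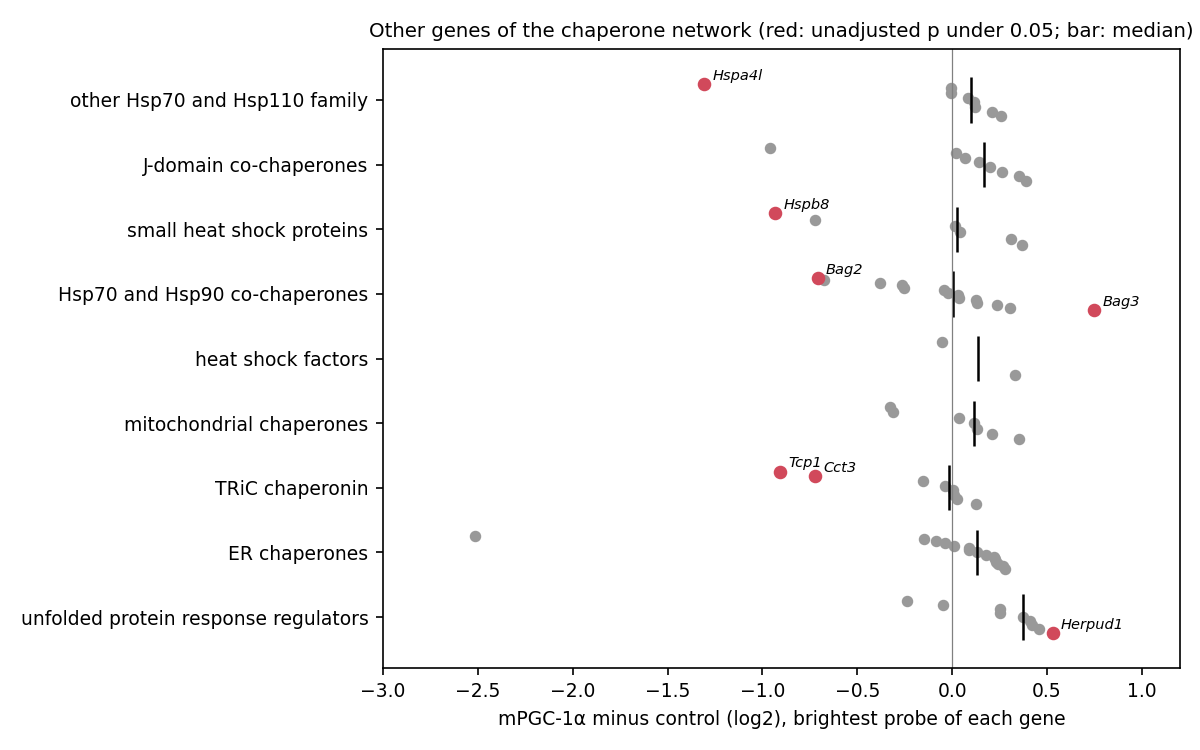
Difference of each tested gene (mPGC-1α minus control, log2, x axis) in 9 lists of the chaperone network, by its brightest probe, with black bars for list medians and red for an unadjusted p under 0.05. The red genes are Bag3 (0.75) and Herpud1 (0.53) above 0 and Hspa4l, Hspb8, Bag2, Tcp1 and Cct3 below it, and none passed the adjusted threshold.

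Most markers of neurons, oligodendrocytes and astrocytes had a higher mean in mPGC-1α, and these cells also express the chaperones. Of the 12 neuron markers 11 had a higher mean in mPGC-1α, against 64.0% of all genes. An unadjusted p under 0.05 was found for 7 of them, against 6.09% of all genes, and their median was 0.89 against 0.11. Their mean level ran from -1.59 to -1.13 in control and from -1.10 to -0.15 in mPGC-1α. All 8 oligodendrocyte markers (median 0.87) and all 7 tested astrocyte markers (median 0.97) had a higher mean in mPGC-1α, against the same 64.0% of all genes. Over the 6 oligodendrocyte markers measured on all 6 arrays the mean level was highest on mPGC-1α 1, at 1.15, where Hspa1a and Hspa1b were also highest, and the neuron and astrocyte mean levels were highest on mPGC-1α 2, at -0.15 and 1.51, where Hspa1a and Hspa1b were within the control range. The oligodendrocyte mean levels of the groups overlapped, at 0.08 on control 2 and 0.02 on mPGC-1α 2. Of the 6 tested endothelial and mural markers 5 had a higher mean, with a median of 0.25. Their mean level ran from -2.33 to -2.11 in control and from -2.19 to -2.07 in mPGC-1α. The monocyte and macrophage list had a median of -0.19, the neutrophil list one of -0.0003 and the 10 tested microglial markers one of 0.08. No marker passed the adjusted threshold, and their part in the chaperone values was not tested.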

How the data were processed

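RNA of 6 microglia samples was hybridised to Agilent one-colour mouse arrays. The deposited intensity values are the background-subtracted processed signals that the authors' Agilent Feature Extraction (11.5.1.1) wrote per spot, and the authors' log2 value table was used as an alternative. Each array's 75th percentile over probes, all spots included, was subtracted from log2 intensity. Leaving marked spots out of the reference would have lowered it by 0.50 on mPGC-1α 3 and 0.25 on control 3, since marked spots were bright. Spots marked as outliers were then left out and spots of a probe were averaged. Tests took the probes measured on at least 2 arrays per group and well above background on every measured array of control or of mPGC-1α. Probes were named through their accessions in the RefSeq table (33767 of 56605 named). Tests were limma 3.58.1 (R 4.3.3) with an intensity trend, Benjamini-Hochberg adjustment over 40745 probes, checked on simulated data, and exact two-sided permutation tests of single values. The precision is limited by 3 arrays per group. No label says what a replicate number stands for. Deviations from the group means correlated over probes by 0.17 to 0.25 for same-numbered arrays and by -0.34 to 0.03 for others. Same-numbered arrays were therefore treated as pairs in the fit blocked on the replicate number. The main fit and the permutation tests were unpaired. The pairing was read from these same data, and for control 3 and mPGC-1α 3, which shared a slide, pair and slide cannot be told apart. Members and lists were chosen with earlier results of these data known. All member probes were named, and at most 3 genes per other list, by smallest p. Alternatives were the normalization, background correction, filters, slide and replicate blocks, each array left out and, chosen after seeing the data, other references.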

Additional observations from a re-analysis of the deposited data

How the results depend on the processing

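The number of probes past the adjusted threshold by limma ranged from 0 to 2102 when each array was left out. The 2102, of which 140 were higher and 1962 lower in mPGC-1α, came without control 2. It was 1 with the replicate block, and 1720 with the replicate block joined to a 75th percentile over unmarked spots, a setting chosen after seeing the data. In that last setting, where 4.22% of all probes passed, 2 member genes passed by the brightest probe, both higher, Hspa1a (2.07, adjusted p = 6.1e-05) and Hspa1b (2.05, adjusted p = 8.7e-05), as no member gene did in another setting. As many dimmer member probes passed there as lower, Hspa8 A_66_P137434 (-1.84, adjusted p = 0.00017) and Hsph1 A_55_P2931347 (-2.35, adjusted p = 0.00034). That Hsph1 probe passed the filter only through control, where it was higher, so its p-value gives no separate support for a difference. For the Hspa8 probe the blocked fit rested on the pairs of arrays 1 and 2. The replicate block alone changed no call of a member. The cause was not tested. The SE of Hspa1a and Hspa1b in the joined setting was 0.37 for each, against 0.97 and 1.13 in the main fit. Their p-values there do not measure the spread of these pairs alone, since limma takes part of each variance from other probes. The pairing was read from these same data, and mPGC-1α 1 set much of both differences. Of 261 values of single member probes under alternatives, 240 kept their direction and side of the threshold, 6 newly passed it and 15 changed sign. Leaving out 1 array moved Hsf1 from -0.128 to 0.0495, with 0.0376 without control 2, and it was 0.0347 with the unmarked reference, alone or with the block. Hspb1 ran from -0.850 to 0.346, the latter without control 2, and was 0.044 without mPGC-1α 3. The brightest Hspa8 probe changed to -0.0488 by quantile normalization, to -0.0203 in the authors' table and, averaged over probes, to -0.72. The brightest Hsph1 probe changed to -0.86 averaged over probes, to -0.0232 by normexp with quantile normalization, and ran from -0.135, without mPGC-1α 1, to 0.227, without control 2. Averaged over probes, Hsp90aa1 changed to -0.0073. The median of the member genes ran from -0.05, without mPGC-1α 1, to 0.35, without control 2. The median of all probes moved from 0.01 to 0.19.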
